A study of Homo sapiens with 24 samples.

Results

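The human mitochondrial genome carries 37 genes, and all 37 were among the 60232 rows of the gene table. They were chosen by symbol, every gene whose name begins with MT-, and comprise 13 protein-coding, 2 ribosomal RNA (rRNA) and 22 transfer RNA (tRNA) genes. RNA was sequenced from 22Rv1 cells, a human prostate carcinoma line long established in culture. The 9 libraries form 3 groups in biological triplicate, per the series design text. Cells received KB05 at 200 µM, KB02 at 200 µM or the vehicle DMSO. The compounds were left on for 1 h, the cells then recovered for 2 h in new medium, for 3 h in all per the labels. All groups are the same cell line with no genetic change stated, and the compounds are known here by code name alone. A further 15 samples at 8 h, with other treatments, were not analysed here.

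The mitochondrial genome is a small circle that is transcribed on both strands into long precursor RNAs. In these precursors most mRNAs and both rRNAs are flanked by tRNAs, which RNase P and ELAC2 cut out, and this frees the RNAs between them. The rRNAs build the mitochondrial ribosome, and the mRNAs encode core subunits of respiratory complexes I, III and IV and of ATP synthase. Because the genes of a strand share a precursor, differences in their mature levels also reflect processing and turnover, for which the LRPPRC-SLIRP complex that binds mitochondrial mRNAs is known. Mitochondrial mRNAs carry short poly(A) tails, while rRNAs carry few or no added adenines.

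In the annotation (GENCODE release 29 on GRCh38) every one of the 37 genes has a single exon. Both rRNA genes, 12 protein genes and 14 tRNA genes lie on the + strand, and MT-ND6 and 8 tRNA genes lie on the - strand. The sequences below are the + strand of GENCODE release 29 transcripts and were chosen because they decide how reads can be assigned. MT-RNR1 (small-subunit rRNA, chrM:648-1601) and MT-RNR2 (large-subunit rRNA, chrM:1671-3229) are followed by MT-ND1 (chrM:3307-4262), and the tRNA genes that flank and separate these genes are shown whole. MT-TF at chrM:577-647 precedes MT-RNR1, MT-TV at chrM:1602-1670 lies between the rRNA genes, MT-TL1 at chrM:3230-3304 lies between MT-RNR2 and MT-ND1, and MT-TI at chrM:4263-4331 follows MT-ND1.
MT-TF: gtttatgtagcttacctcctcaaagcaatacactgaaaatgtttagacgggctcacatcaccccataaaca
MT-TV: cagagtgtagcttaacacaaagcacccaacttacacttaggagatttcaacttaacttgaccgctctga
MT-TL1: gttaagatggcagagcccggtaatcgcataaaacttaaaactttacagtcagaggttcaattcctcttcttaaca
MT-TI: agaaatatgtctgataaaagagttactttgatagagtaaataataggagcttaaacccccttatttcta

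MT-RNR1 and MT-RNR2 abut their tRNA neighbours, and MT-ND1 begins after a gap of 2 bases behind MT-TL1. MT-ATP8 with MT-ATP6, and MT-ND4L with MT-ND4, overlap on the same strand, and each pair is known to share one mRNA. The end of MT-ATP8 (chrM:8513-8572 shown) and the start of MT-ATP6 (chrM:8527-8586 shown) have 46 bases in common, in capitals, and the end of MT-ND4L (chrM:10727-10766 shown) and the start of MT-ND4 (chrM:10760-10799 shown) have 7.
MT-ATP8: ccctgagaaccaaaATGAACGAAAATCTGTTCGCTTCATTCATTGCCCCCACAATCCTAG
MT-ATP6: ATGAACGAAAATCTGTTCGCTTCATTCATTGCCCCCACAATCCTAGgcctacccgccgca
MT-ND4L: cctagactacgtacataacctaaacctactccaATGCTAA
MT-ND4: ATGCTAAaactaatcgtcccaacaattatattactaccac

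Nuclear chromosomes also hold old copies of mitochondrial DNA. MTATP6P1 on chromosome 1 (chr1:633696-634376) is 98.5% identical to MT-ATP6 over 681 bases and differs at 10 of them, with identical runs of up to 141 bases. The stretch with the most differences is shown for the gene (chrM:8619-8718) and its copy (chr1:633788-633887), with the 4 differing bases in capitals; counted from the gene's first base they are C129T, A151C, A175G and A192G, gene first.
MT-ATP6: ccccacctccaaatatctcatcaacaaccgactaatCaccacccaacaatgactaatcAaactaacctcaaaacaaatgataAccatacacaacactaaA
MTATP6P1: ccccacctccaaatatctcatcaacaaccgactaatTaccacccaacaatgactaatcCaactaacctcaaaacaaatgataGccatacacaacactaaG

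Total counts per library ran from 15507130 to 19617330 with KB05, from 17216861 to 21900671 with KB02 and from 17565251 to 19830410 with DMSO. Levels below are CPM, counts relative to library size after scaling by TMM factors, and levels of different genes are compared per kilobase of gene. The 15 protein-coding and rRNA genes passed the filter on low counts, with 12362 to 858555 counts per library, and the 22 tRNA genes had a count of 0 in all 9 libraries. A gene was called when its adjusted p was under 0.05 in edgeR's quasi-likelihood test with Benjamini-Hochberg adjustment over 18379 genes, and all adjusted p-values below come from that fit. The 12 prostate luminal markers checked all passed the filter on low counts. Of 21 markers of other cell types, 13 passed the filter and CDH5 was at 0 in all libraries. The summed level of the 21 was 301 to 324, 251 to 272 and 331 to 380 CPM, before TMM scaling, with KB05, KB02 and DMSO. SYP was the largest part of this sum, at a mean of 190 CPM over all libraries, and VIM came next at 33.8 CPM. The part of these markers in the results was not tested.

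Mitochondrial transcripts made up a smaller share of the library after both compounds, and the classes parted. The 13 protein-coding genes took 9.76 ± 0.486% of all counts with KB05, 11.7 ± 0.562% with KB02 and 14.6 ± 0.804% with DMSO (SD, n = 3). The 2 rRNA genes took 4.52 ± 0.226% with KB05, 3.79 ± 0.050% with KB02 and 3.17 ± 0.152% with DMSO. For both classes no library of one group overlapped another group's range, so the order of the groups was opposite in mRNA and rRNA. Such shares are scaled by library size alone, which bears on the rRNA rise with KB02. The median log2 fold change of the 2 rRNA genes for KB02 against DMSO was 0.22 with that scaling. With TMM factors it was 0.09, and neither gene was called. In bulk RNA, fewer cells with a transcript and less of it per cell cannot be told apart.

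The ratio of rRNA to protein-coding counts was 0.450, 0.466 and 0.473 in the KB05 libraries. It was 0.327, 0.334 and 0.312 in the KB02 libraries and 0.218, 0.218 and 0.214 in the DMSO libraries. This ratio lies within a library and does not depend on how libraries are scaled; the 3 groups did not overlap, and an exact test of 3 against 3 libraries could not go below 0.1. MT-CO1, the catalytic subunit of cytochrome c oxidase, was the gene with the most counts in every DMSO library, and MT-RNR2 was that gene in every KB05 and KB02 library.

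**Figure D1:**
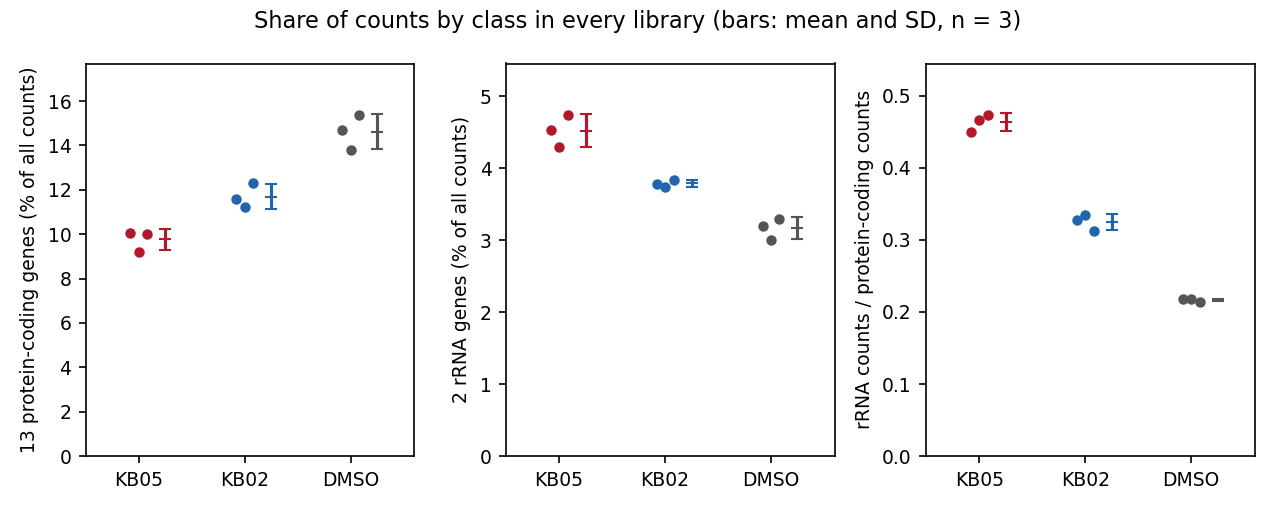
Share of all counts taken by the 13 protein-coding genes (left, %), by the 2 rRNA genes (middle, %) and the ratio of rRNA to protein-coding counts (right) in each library of KB05, KB02 and DMSO. Points are libraries, bars are mean and SD (n = 3); the ratio averaged 0.463 with KB05, 0.325 with KB02 and 0.217 with DMSO, with no overlap.

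Within the 15 measured genes, levels per length in DMSO cells spanned 7.70-fold. MT-CO1 was highest at 29755 ± 2039 CPM per kb and MT-ATP6 next at 26169 ± 2362 CPM per kb, and these 2 overlapped between libraries. MT-CO2, MT-RNR2 and MT-ATP8 followed at 18934, 18708 and 18100 CPM per kb, without separation among them. MT-CO3 and MT-ND4 at 15501 and 14326 CPM per kb also overlapped. Below these came MT-CYB at 9866 CPM per kb, which stood apart from its neighbours in the order.

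The subunits of complex I, MT-ND4 apart, filled most of the lower end. MT-ND2 and MT-ND6 stood at 7886 and 7407 CPM per kb and overlapped, followed by MT-ND1 at 6241, MT-ND4L at 5183 and MT-ND3 at 4655 CPM per kb, each apart from the next. MT-RNR1 and MT-ND5 were lowest at 3873 and 3864 CPM per kb and overlapped. MT-RNR2 was 4.83-fold higher per length than MT-RNR1, its partner on the same precursor.

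**Figure D2:**
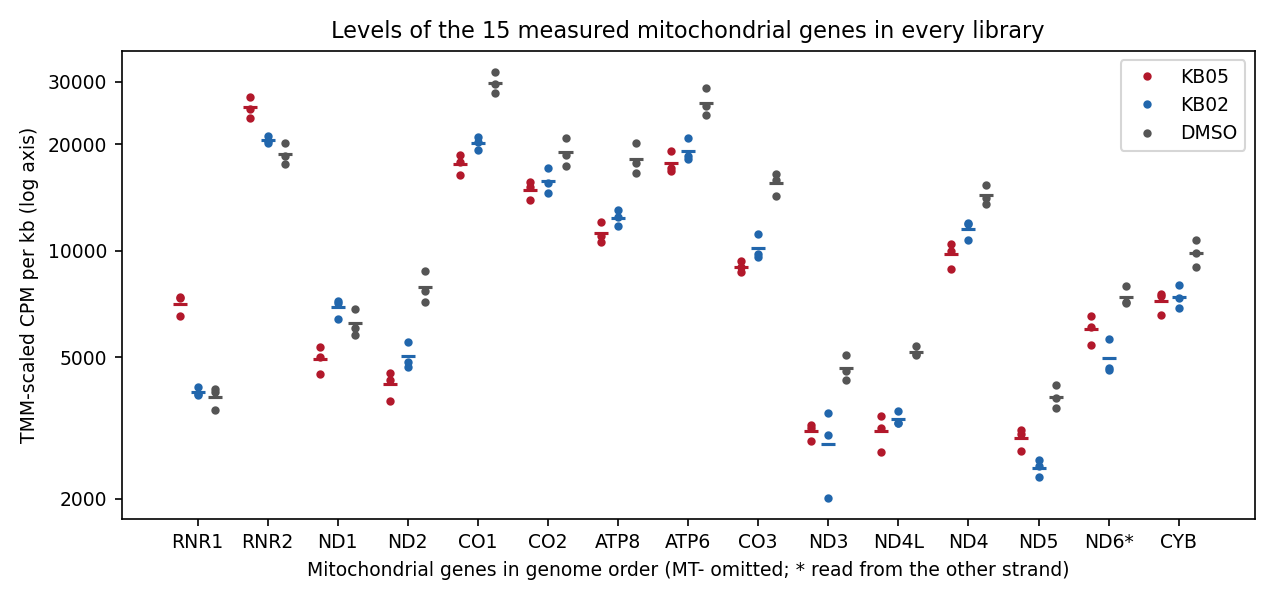
TMM-scaled CPM per kb (log axis) of the 15 measured genes in genome order, in each library of KB05 (red), KB02 (blue) and DMSO (grey); short lines are means, and MT-ND6, marked *, lies on the other strand. MT-RNR1 and MT-RNR2 are highest with KB05, while for 12 of the 13 protein genes every KB05 and KB02 library lies below every DMSO library.

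With KB05 the mitochondrial rRNAs rose, and the mRNAs fell, MT-ND3 not reaching the threshold. Both rRNA genes were called higher than in DMSO cells, where 18.7% of all genes tested were called higher, and 12 of 13 protein-coding genes were called lower, where 21.1% of all genes were. Their median log2 fold change was 0.66 for the rRNA genes and -0.57 for the protein genes, against -0.00 for all genes tested. No protein gene was called higher by edgeR's quasi-likelihood test, and none was at an unadjusted p under 0.05 or by DESeq2. For all 13 protein genes every KB05 library lay below every DMSO library, as held for 25.4% of all genes.

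MT-RNR1, the small-subunit rRNA, stood at 7063, 6235 and 7006 CPM in KB05 cells, against 3814, 3382 and 3887 CPM in DMSO cells. The groups were well apart, and the difference was 1.83-fold (log2 0.87 ± 0.07 SE, adjusted p = 9.03e-11). MT-RNR2, the large-subunit rRNA, stood at 39243, 37032 and 42402 CPM in KB05 cells, against 28827, 27339 and 31329 CPM in DMSO cells. Its groups did not overlap either, which on the higher side held for 23.7% of all genes tested, and its rise was smaller at 1.36-fold (log2 0.44 ± 0.08 SE, adjusted p = 2.56e-05).

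The ratio of MT-RNR1 to MT-RNR2 counts was 0.171 ± 0.00777 with KB05, against 0.127 ± 0.00486 with DMSO (SD, n = 3). The KB05 libraries all lay above the DMSO libraries, so the rRNAs of one precursor did not rise in step.

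The largest falls with KB05 were in MT-ND2, MT-CO3 and MT-CO1. MT-ND2, a membrane subunit of complex I, stood at 4710, 3938 and 4500 CPM in KB05 cells, against 8035, 7489 and 9129 CPM in DMSO cells, 1.87-fold lower (log2 -0.91 ± 0.08 SE, adjusted p = 1.32e-09). MT-CO3, a core subunit of cytochrome c oxidase, stood at 7334, 6811 and 7038 CPM in KB05 cells, against 12376, 11167 and 12914 CPM in DMSO cells, 1.72-fold lower (log2 -0.78). MT-CO1 stood at 28658, 25184 and 27381 CPM in KB05 cells, against 45437, 42984 and 49226 CPM in DMSO cells, 1.69-fold lower (log2 -0.76). In these 3 genes the highest KB05 library lay far below the lowest DMSO library.

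The smallest falls were in MT-ND6 and MT-ND1. MT-ND6, the complex I subunit encoded on the other strand, stood at 3199, 2851 and 3432 CPM in KB05 cells, against 3763, 3727 and 4177 CPM in DMSO cells. The groups did not overlap, and the log2 fold change was -0.30 ± 0.08 SE (adjusted p = 0.00483), but the call was lost without KB05 replicate 2 (adjusted p = 0.0551). MT-ND1, the complex I subunit next to MT-RNR2, stood at 4793, 4291 and 5110 CPM in KB05 cells, against 5800, 5543 and 6555 CPM in DMSO cells, a log2 fold change of -0.33 (adjusted p = 0.00105).

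The remaining called genes lay between these. MT-CO2, which carries the copper site that takes electrons from cytochrome c, fell by 0.35 on the log2 scale and MT-ND5, a membrane subunit of complex I, by 0.38. MT-CYB, the cytochrome b of complex III, fell by 0.45, MT-ND4 by 0.55 and MT-ATP6, the channel subunit of ATP synthase, by 0.57. MT-ATP8, its small partner, fell by 0.69 and MT-ND4L by 0.74. MT-ND3, another complex I subunit, had 1096, 1002 and 1116 CPM in KB05 cells, against 1582, 1494 and 1755 CPM in DMSO cells, and was the one protein gene not called (log2 -0.59 ± 0.20 SE, adjusted p = 0.0558). Its groups did not overlap, and it was called by DESeq2 (adjusted p = 0.00749) and in a fit of these 2 groups alone (adjusted p = 1.21e-07).

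With KB02 the mRNAs fell, MT-ND1 apart, while the rRNAs did not pass the test. With KB02, 12 of 13 protein-coding genes were called lower than in DMSO cells, where 23.3% of all genes tested were called lower. Their median log2 fold change was -0.56, against 0.00 for all genes tested, and for these 12 no KB02 library overlapped the DMSO range, as held for 26.6% of all genes on the lower side. No protein gene and neither rRNA gene was called higher by edgeR's quasi-likelihood test, against 22.8% of all genes; none was at an unadjusted p under 0.05 or by DESeq2. The comparisons of KB02 and KB05 with DMSO share the DMSO libraries.

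MT-RNR1 stood at 3937, 3766 and 3734 CPM in KB02 cells, overlapping the DMSO libraries given above, with a log2 fold change of 0.05 (95% interval -0.11 to 0.20, adjusted p = 0.653). MT-RNR2 stood at 31803, 31414 and 32933 CPM in KB02 cells, just above all 3 DMSO libraries, with a log2 fold change of 0.14 (95% interval -0.02 to 0.29, adjusted p = 0.149). MT-ND1 stood at 6910, 6144 and 6790 CPM in KB02 cells and overlapped DMSO, with a log2 fold change of 0.15 (95% interval -0.01 to 0.31, adjusted p = 0.127). Scaling by library size alone, which moves the median of all genes by 0.13 in this comparison, called all 3 higher, at log2 0.18, 0.27 and 0.28. Leaving out DMSO replicate 3 called MT-ND1 and MT-RNR2 (adjusted p = 0.0272 and 0.0473), and leaving out KB02 replicate 2 called MT-ND1 (adjusted p = 0.0271). A fit with a replicate block, described below, also called MT-ND1 and MT-RNR2 higher.

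Among the mRNAs, MT-ND3, MT-ND5 and MT-ND2 fell most with KB02. MT-ND3 had 696, 1047 and 1210 CPM in KB02 cells, all below DMSO, but replicate 1 stood well below the others. Its log2 fold change of -0.71 ± 0.20 SE (adjusted p = 0.0245) was the least certain of the calls. It was lost without KB02 replicate 2 (adjusted p = 0.0635), without any one DMSO library (adjusted p = 0.0633, 0.0544 and 0.0784 without replicates 1, 2 and 3) and in a fit of these 2 groups alone (adjusted p = 0.0621), and without KB02 replicate 1 the value was -0.46.

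MT-ND5 stood at 4481, 4162 and 4651 CPM in KB02 cells, against 6944, 6505 and 7556 CPM in DMSO cells, 1.58-fold lower (log2 -0.66 ± 0.08 SE, adjusted p = 1.35e-08). MT-ND2 stood at 5064, 4911 and 5778 CPM in KB02 cells, 1.56-fold below DMSO (log2 -0.65, adjusted p = 2.25e-07). Both were clear of the DMSO range. MT-ND6 had 2424, 2454 and 2968 CPM in KB02 cells and was 1.49-fold lower than in DMSO cells (log2 -0.57 ± 0.08 SE, adjusted p = 1.48e-06).

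MT-CO3 with 7509, 7657 and 8732 CPM and MT-CO1 with 31227, 29734 and 32324 CPM in KB02 cells were 1.53-fold and 1.48-fold lower than in DMSO cells. MT-CO2 fell least among the called genes, with 9982, 10590 and 11681 CPM in KB02 cells, against 12730, 11887 and 14235 CPM in DMSO cells (log2 -0.27 ± 0.08 SE, adjusted p = 0.00594). Although these groups did not overlap, its call was lost without KB02 replicate 1 or 2 (adjusted p = 0.111 and 0.0722) and with scaling by library size alone (adjusted p = 0.0946). MT-ND4L fell by 0.63, MT-ATP8 by 0.55, MT-ATP6 by 0.45, MT-CYB by 0.41 and MT-ND4 by 0.32 on the log2 scale.

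**Figure D3:**
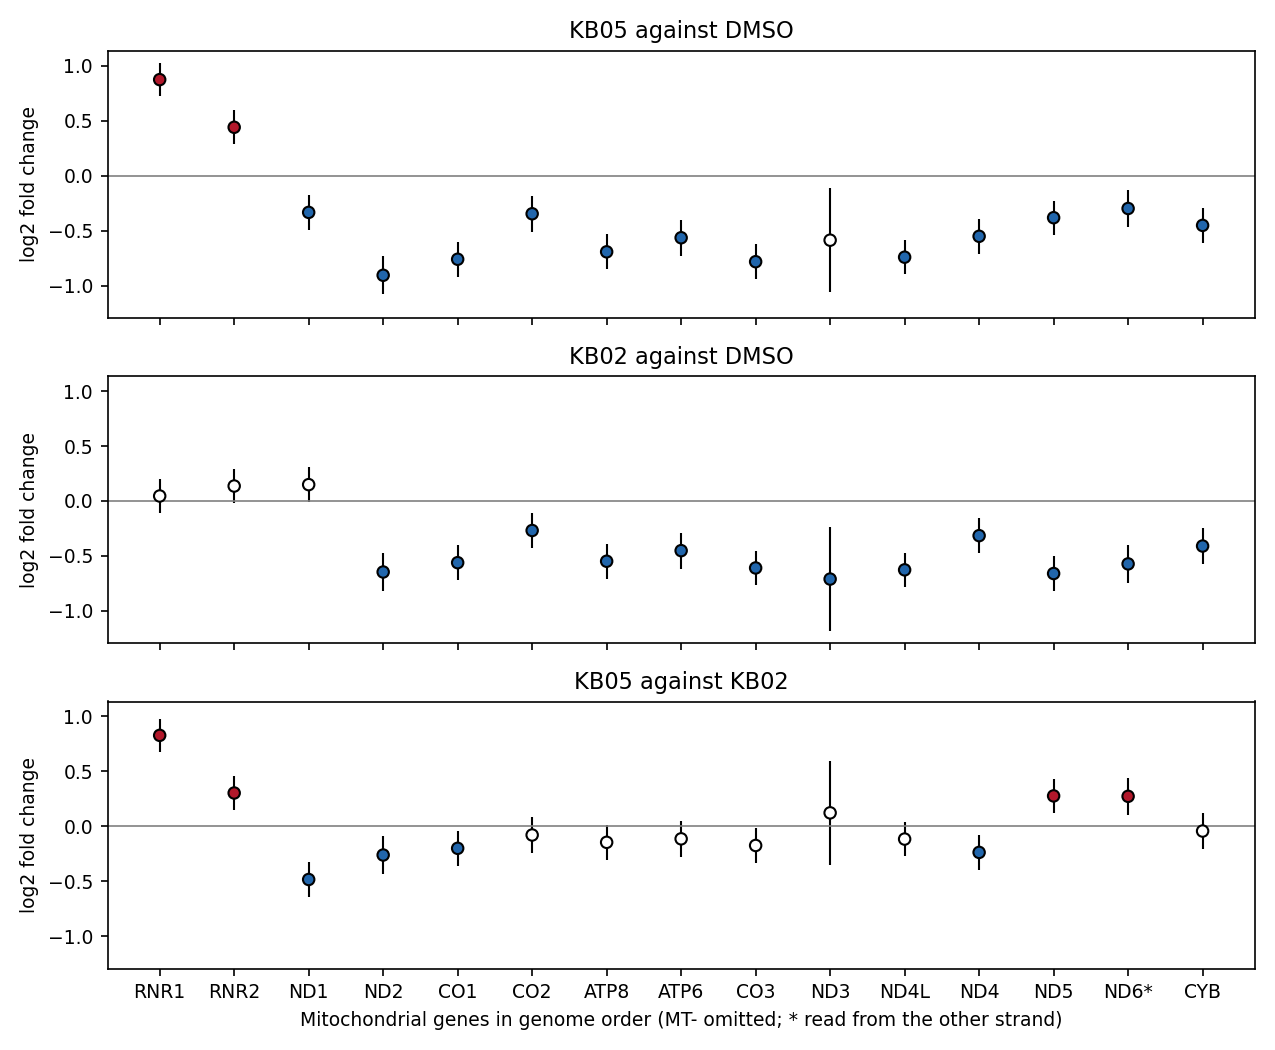
Log2 fold change of each measured gene in genome order for KB05 against DMSO (top), KB02 against DMSO (middle) and KB05 against KB02 (bottom); bars are 95% intervals, red points were called higher, blue points called lower and white points not called, and MT-ND6, marked *, lies on the other strand. MT-RNR1 is at 0.87 with KB05 and 0.05 with KB02 against DMSO, and MT-ND1 at -0.33 and 0.15.

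Setting the compounds against each other tests where they differed. With KB05 both rRNA genes and 2 protein genes were called higher than with KB02, against 21.8% of all genes, and 4 protein genes were called lower, against 18.2% of all genes. MT-RNR1 was 1.78-fold higher with KB05 than with KB02 (log2 0.83 ± 0.07 SE, adjusted p = 1.71e-10) and MT-RNR2 1.23-fold higher (log2 0.30 ± 0.08 SE, adjusted p = 0.00176), with no overlap. MT-ND1 was 1.40-fold lower (log2 -0.48 ± 0.08 SE, adjusted p = 9.57e-06), also with no overlap, and this was the largest difference among the mRNAs.

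The other calls between the compounds were smaller. MT-ND2 at log2 -0.26 (adjusted p = 0.0138), MT-ND4 at -0.24 (adjusted p = 0.0150) and MT-CO1 at -0.20 (adjusted p = 0.0374) were lower with KB05. Each was lost without KB05 replicate 2 (adjusted p = 0.130, 0.145 and 0.220) or without KB02 replicate 3 (adjusted p = 0.111, 0.0628 and 0.139), and MT-CO1 also without KB05 replicate 3 (adjusted p = 0.0709). MT-ND5 at log2 0.28 (adjusted p = 0.00392) and MT-ND6 at 0.27 (adjusted p = 0.00940) were higher with KB05. MT-ND5 was lost without KB02 replicate 2 (adjusted p = 0.104). MT-ND6, whose groups overlapped, was lost without KB05 replicate 3 (adjusted p = 0.0738), KB02 replicate 1 (adjusted p = 0.144) or KB02 replicate 2 (adjusted p = 0.152), and with scaling by library size alone (adjusted p = 0.0836).

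For the other 7 protein genes no difference between the compounds was called. MT-CYB stood at 8524, 7520 and 8630 CPM with KB05, against 8372, 7888 and 9155 CPM with KB02, and the 95% interval of the log2 difference was -0.20 to 0.12. MT-CO2 stood at 10380, 9501 and 10661 CPM with KB05, against the KB02 values above, with an interval of -0.24 to 0.08. MT-ND3 had the widest interval, -0.35 to 0.60. MT-CO3 was the closest to a call (log2 -0.17, adjusted p = 0.0697) and was called by DESeq2 (adjusted p = 0.0115). Scaling by library size alone moved the median of all genes by -0.11 here and gave 9 protein genes lower and 1 higher with KB05, in place of 4 and 2.

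Neighbouring genes did not keep a fixed ratio. Counts of MT-ND1 relative to MT-RNR2, its neighbour across MT-TL1, were 0.122, 0.116 and 0.121 with KB05, against 0.217, 0.196 and 0.206 with KB02 and 0.201, 0.203 and 0.209 with DMSO. The KB05 libraries stood apart at 58.5% of the DMSO mean, while KB02 and DMSO overlapped. Counts of MT-ND1 relative to MT-ND2 were 1.08 ± 0.0593 with KB05, 1.26 ± 0.0954 with KB02 and 0.727 ± 0.0119 with DMSO (SD, n = 3), and both compounds lay above DMSO without overlap.

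MT-ND5 relative to MT-CYB differed the other way between the compounds, at 0.653 ± 0.00729 with KB05, 0.524 ± 0.0140 with KB02 and 0.622 ± 0.00810 with DMSO, and no groups overlapped. MT-CO2 relative to MT-CO1 was 0.376 ± 0.0136 with KB05, 0.346 ± 0.0227 with KB02 and 0.282 ± 0.00650 with DMSO, both compounds above DMSO. MT-CO3 relative to MT-CO1 was 0.261, 0.256 and 0.265 on average with KB05, KB02 and DMSO, with all groups overlapping. MT-ATP8 relative to MT-ATP6, which share one mRNA, was 0.192 with KB05, 0.197 with KB02 and 0.210 with DMSO, and MT-ND4L relative to MT-ND4 was 0.0683, 0.0629 and 0.0781 in the same order of groups. In both shared mRNAs the compounds lay below DMSO without overlap, although reads in the overlaps of 46 and 7 bases are divided by estimate.

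**Figure D4:**
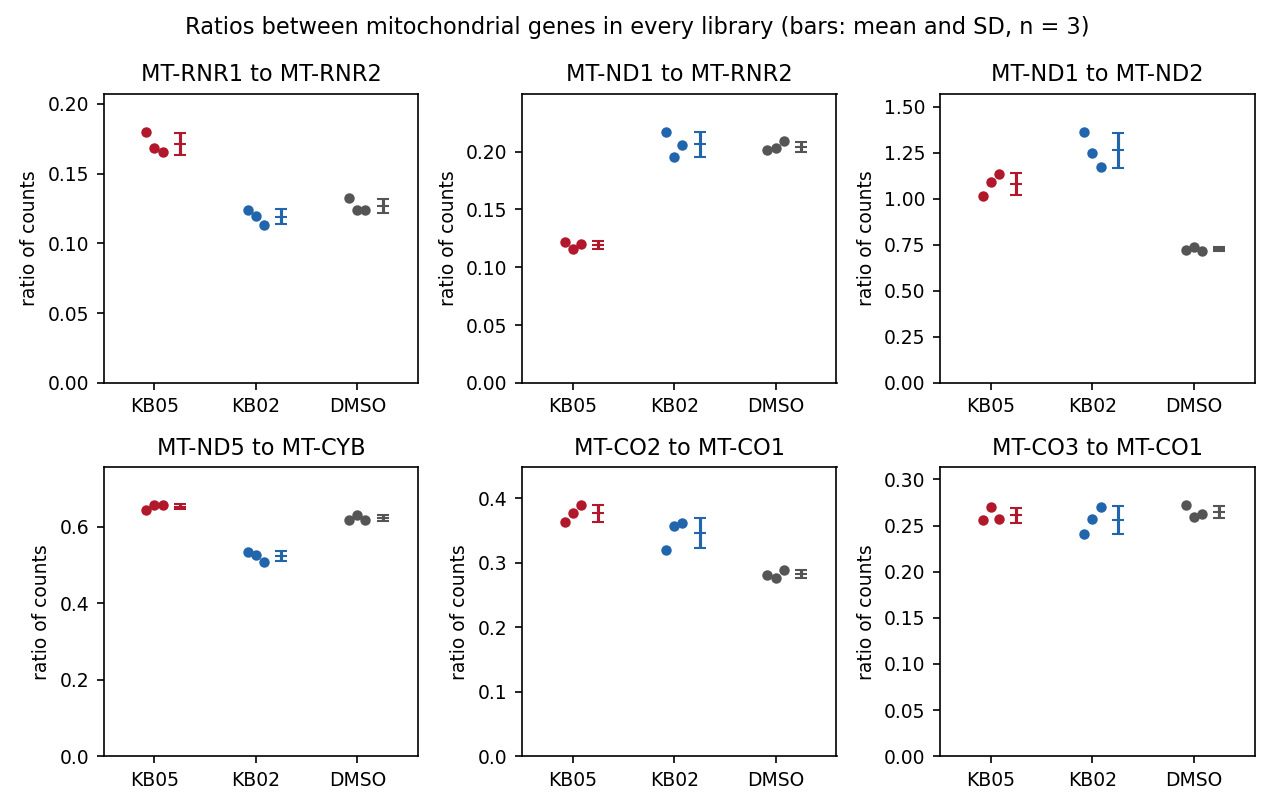
Ratio of counts between pairs of mitochondrial genes in each library of KB05, KB02 and DMSO (points), with mean and SD (bars, n = 3). MT-ND1 to MT-RNR2 is low with KB05 alone (mean 0.120), MT-ND5 to MT-CYB is low with KB02 alone (mean 0.524), and MT-CO3 to MT-CO1 overlaps in all groups.

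The changes were also set against position along the genome. Over the 12 protein genes of the + strand, Spearman's rho between start position and log2 fold change was 0.16 with KB05 and -0.25 with KB02, each against DMSO, and over the 11 genes without MT-ND1 it was 0.51 and -0.018. For KB05 against KB02 it was 0.64, and 0.54 without MT-ND1. The values against DMSO thus rest in part on MT-ND1. These genes share libraries and precursors and are not independent, so the values are a description. On the - strand MT-ND6 was the one gene measured, and like its neighbour MT-ND5 on the other strand it was lower with each compound than with DMSO. The ratio of MT-ND6 to MT-ND5 was 0.588 ± 0.0152 with KB05, 0.590 ± 0.0486 with KB02 and 0.556 ± 0.0158 with DMSO, where every KB05 library lay above every DMSO library and KB02 overlapped both other groups. Relative to MT-CYB, on its other side, MT-ND6 was at 0.384 ± 0.0119 with KB05, 0.308 ± 0.0175 with KB02 and 0.346 ± 0.0141 with DMSO. No groups overlapped in that ratio, and the compounds lay on opposite sides of DMSO. The sources used here do not say whether the counting used strand, so reads of MT-ND6 and of antisense RNA from the other strand cannot be told apart.

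All 22 tRNA genes were at 0 in all libraries, and these zeros carry no information on tRNA levels. The tRNA genes are 59 to 75 bases long. GENCODE release 29 gave a length for 57997 genes of the table, and the 2235 genes without a length are left out here. Of the genes with a length, the shortest with any count in any library is 127 bases long, by its longest transcript. The 5644 shorter genes were all at 0. Among these were all 1247 other genes no longer than the longest mitochondrial tRNA gene. The third class of the mitochondrial genome was therefore outside what the table could show.

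**Figure D5:**
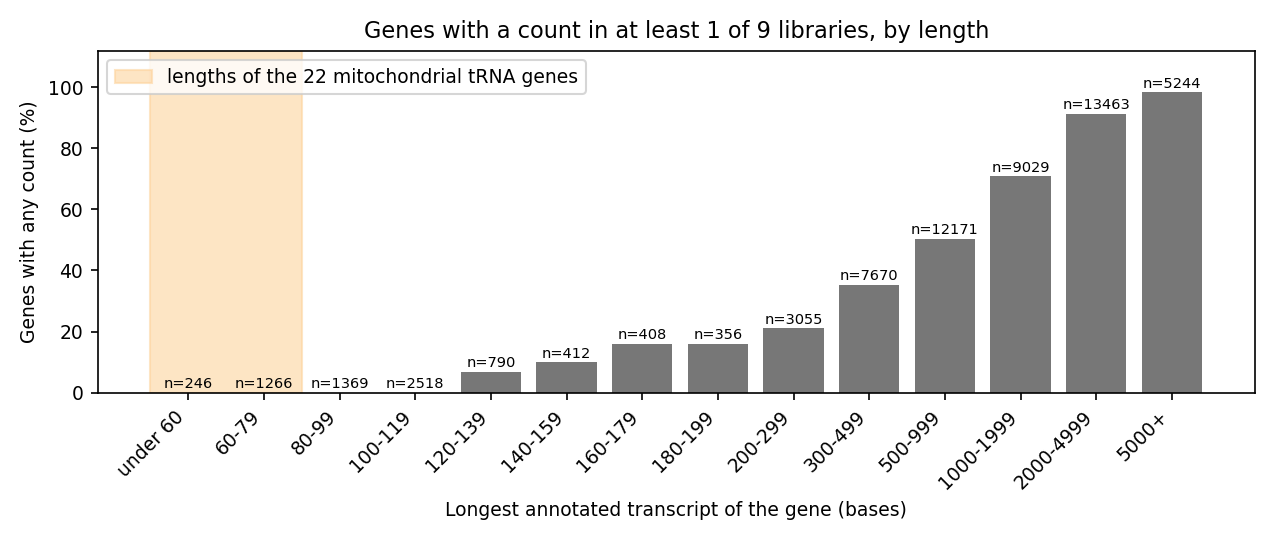
Share of genes (%) with a count in at least 1 of 9 libraries, by length of the longest annotated transcript in bases; numbers above the bars are genes per length class, and the shaded classes hold the 22 mitochondrial tRNA genes. No gene below 120 bases has a count, and 6.84% of genes of 120 to 139 bases do.

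RNAs other than the mitochondrial rRNAs that lack poly(A) tails were examined as a second set. Of 34 such nuclear RNAs, 8 passed the filter, and with KB05 4 of these were called higher than DMSO, against 18.7% of all genes tested, and 4 were called higher than KB02, against 21.8% of all genes; none was called lower by edgeR's quasi-likelihood test, at an unadjusted p under 0.05 or by DESeq2. The 4 calls against DMSO became 2 with RLE factors and 2 by DESeq2. Among the 4 was RNU1-1, which passed the filter on low counts through its KB05 libraries, so its call carries no weight. It was at 2.34 ± 0.383 CPM with KB05, 0.286 ± 0.0917 CPM with KB02 and 0.171 ± 0.115 CPM with DMSO. RN7SL1, the RNA of the signal recognition particle, was at 74.4 ± 9.64 CPM in KB05 cells, against 56.2 ± 7.97 CPM in DMSO cells (adjusted p = 0.0476), though near-identical copies can take its reads. RPPH1, the RNA of nuclear RNase P, was at 2.72 ± 0.853 CPM in KB05 cells, against 1.56 ± 0.344 CPM in DMSO cells (adjusted p = 0.0326).

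The summed level of the 34 RNAs was 165 to 232 CPM, before TMM scaling, with KB05, 118 to 151 with KB02 and 119 to 150 with DMSO, and 15 of them were at 0 in all libraries. The sum was higher in all KB05 libraries and was mostly RN7SL1 and RN7SL2, while RN7SL2, RN7SL3, RN7SK and SCARNA2 were not called against DMSO. How far poly(A) selection or rRNA removal, neither stated in the sources used here, takes part in the rRNA levels was not tested.

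Nuclear copies of mitochondrial genes could take reads from their parents. Of 29 listed copies 9 passed the filter. Against DMSO 4 were called lower and 1 higher with KB05, beside 21.1% and 18.7% of all genes tested. With KB02 6 were lower and 1 higher, beside 23.3% and 22.8% of all genes. MTCO3P12, MTCO2P12 and MTATP8P1 were near the floor, with group means of at most 0.839, 0.577 and 0.592 CPM. MTATP6P1, the most counted, held 8.17%, 7.38% and 6.90% of the MT-ATP6 count in KB05 libraries, 6.11%, 7.26% and 7.53% in KB02 libraries and 6.80%, 8.33% and 7.22% in DMSO libraries, with all groups overlapping. MTND2P28 was 1.75-fold lower with KB05 (adjusted p = 0.0267) and 2.14-fold lower with KB02 (adjusted p = 0.00637), as its parent MT-ND2 was lower. MTND1P23, which matches MT-ND1 over 352 bases at 99.1% identity, was 3.53-fold higher with KB05 (adjusted p = 0.00967) and 2.79-fold higher with KB02 (adjusted p = 0.0208), at no more than 0.212% of the MT-ND1 count in any library. Its count was 83.3 in KB02 replicate 1, against 193 and 173 in KB02 replicates 2 and 3 and 67.6 in DMSO replicate 1. The rise with KB02 thus rests mainly on replicates 2 and 3. Adding each copy to its parent, an alternative chosen after seeing the data, changed no call of a mitochondrial gene.

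Genes that transcribe and maintain mitochondrial DNA are encoded in the nucleus, and 17 of 17 listed were measured. With KB05 5 were called higher and 2 lower than DMSO, where 18.7% of all genes tested were higher and 21.1% lower. With KB02 6 were higher and 1 lower, where 22.8% of all genes were higher and 23.3% lower, and scaling by library size alone gave 10 higher and 0 lower. DESeq2 gave 3 higher and 2 lower with KB05, and 5 higher and 0 lower with KB02. TFB2M, a factor that opens mitochondrial promoters, was at 9.93 ± 0.692 CPM in KB05 cells, against 20.3 ± 0.779 CPM in DMSO cells, 2.04-fold lower (adjusted p = 6.34e-09). POLG, the catalytic subunit of the mitochondrial DNA polymerase, was 1.53-fold lower with KB05 (adjusted p = 9.28e-08). TWNK, the mitochondrial replicative helicase, was 1.47-fold higher with KB02 (adjusted p = 2.47e-07), and MGME1, an exonuclease of mitochondrial DNA, 1.41-fold higher (adjusted p = 0.000163).

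Of 36 listed genes of mitochondrial RNA processing, modification and decay, 35 were measured, and their calls were mixed. Against DMSO 7 were higher and 11 lower with KB05, beside 18.7% and 21.1% of all genes tested. With KB02 12 were higher and 9 lower, beside 22.8% and 23.3% of all genes, and scaling by library size alone gave 17 higher and 6 lower. PTCD3, which binds the small mitochondrial ribosomal subunit, was 1.65-fold lower with KB05 (adjusted p = 2.18e-09), and MRM1, a methyltransferase of the large rRNA, was 1.57-fold higher (adjusted p = 2.08e-06). FASTKD5, needed to process precursors at sites without a tRNA, was 1.81-fold higher with KB02 (adjusted p = 4.02e-10), and ALKBH1, which modifies mitochondrial tRNA, 1.91-fold higher (adjusted p = 0.000337). The factors named above as cutting or binding mitochondrial RNA were looked up after values of the list had been seen. LRPPRC was 1.39-fold lower with KB05 and 1.51-fold lower with KB02 (adjusted p = 1.90e-05 and 2.73e-07), while its partner SLIRP was not called (log2 0.19 with KB05 and -0.19 with KB02). ELAC2 was 1.28-fold lower with KB05 and 1.31-fold lower with KB02 (adjusted p = 0.000152 and 2.36e-05). The subunits of mitochondrial RNase P were not called with KB05 (log2 -0.0090 for PRORP, 0.07 for TRMT10C and 0.08 for HSD17B10), while with KB02 PRORP was 1.47-fold lower (adjusted p = 0.000723), TRMT10C 1.41-fold higher (adjusted p = 3.11e-05) and HSD17B10 was not called (log2 -0.033).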

How the data were processed

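The authors deposited one table of estimated counts per gene, 1 column per library, with no scaling to depth. Salmon 1.3.0, DESeq2 1.30.1 and the builds hg38 and GRCh38.p13 are named, per the submitters' processing notes; Salmon divides reads of near-identical or overlapping genes by a model. The sources used here do not state the strand setting, poly(A) selection or rRNA removal, or the annotation release. In each library 20.3% to 24.3% of values had a fraction, and all were rounded. Symbols came from a name table of Ensembl identifiers, and positions, lengths and sequences from GENCODE release 29 on GRCh38.

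The fit used edgeR 4.0.16 in R 4.3.3: filterByExpr by group with a minimum count of 10, TMM factors, and a robust quasi-likelihood fit of all 9 libraries with 3 groups and no block. The standard error (SE) is the log2 fold change divided by the square root of F. A count of 3, the floor for an undetected gene, is 0.129 to 0.195 CPM per library and covers counting error only. Class shares, sums over lists and gene ratios use the counts as deposited; their means ± SD are over 3 libraries. The fit was tested on simulated data. Replicates of a group differed by more than sampling noise, with chi-square per degree of freedom of 4.28 to 9.75.

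The genes and lists were chosen with earlier results of these data known. Values in every library are given for both rRNA genes, MT-ND6, and the 3 protein genes with the largest and 2 with the smallest change in each comparison. From each list of nuclear genes, the 2 called genes whose change is largest, at a mean log2 CPM not under 1, are named per comparison with DMSO. Alternatives were RLE factors, library size alone, factors from nuclear genes, no filter, DESeq2 1.42.0, a fit of 2 groups, a replicate block and each library left out.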

Additional observations from a re-analysis of the deposited data

How the results depend on the processing

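Over all alternatives, 582 values of single mitochondrial genes kept their direction and side of the threshold, 24 crossed into a call, 21 lost one and 3, never called, turned direction. RLE factors, factors from nuclear genes, no filter, DESeq2 and adding nuclear copies to their parents left the counts of called mitochondrial genes within 1.5 times. With scaling by library size alone, KB02 against DMSO gave 1 protein-coding gene and 2 rRNA genes called higher, in place of 0 and 0, and KB05 against KB02 gave 9 protein genes lower and 1 higher, in place of 4 and 2. This scaling moved the median of all genes by 0.13 and -0.11 in these comparisons; the share of calls that were higher was 63.8% against 49.5% with TMM factors for KB02 against DMSO, and 37.4% against 54.4% for KB05 against KB02.

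The shared replicate numbers were not taken as pairs, since over all genes tested same-numbered libraries did not deviate together (correlations of -0.0412 to 0.0813). The mitochondrial share of all counts, however, was lowest in replicate 2 and highest in replicate 3 of every group. In replicates 1, 2 and 3 it was 14.6%, 13.5% and 14.8% with KB05, and 15.4%, 14.9% and 16.2% with KB02. With DMSO it was 17.9%, 16.8% and 18.7%. Whether replicate numbers mark a shared batch was not tested. With a replicate block, KB02 against DMSO gave 1 protein gene (MT-ND1, adjusted p = 0.0258 in edgeR's quasi-likelihood test) and 1 rRNA gene (MT-RNR2, adjusted p = 0.0251) called higher, and KB05 against KB02 gained MT-ATP8 and MT-CO3 as lower (adjusted p = 0.0352 and 0.0165).

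With each library left out in turn, mitochondrial genes called for KB05 against KB02 ranged from 5 to 8, protein genes lower from 1 to 6 and protein genes higher from 0 to 2. For KB02 against DMSO, protein genes higher ranged from 0 to 1 and rRNA genes higher from 0 to 1. For KB05 against KB02, the log2 fold change of MT-CYB, -0.04 with all libraries, ranged from -0.14 to 0.021 and was above 0 without KB05 replicate 2 or KB02 replicate 3. That of MT-ND3, 0.12 with all libraries, ranged from -0.12 to 0.30 and was below 0 without KB02 replicate 1. The cause of these shifts was not tested. Depth does not limit the 15 measured genes. No gene with an annotated length under 127 bases had a count, which bars any statement on the tRNA genes, and the cause of these zeros was not tested.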

Other observations

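Calls in the gene lists below are to be set beside those of all genes tested: 18.7% were called higher and 21.1% lower with KB05 than with DMSO, 22.8% and 23.3% with KB02 than with DMSO, and 21.8% and 18.2% with KB05 than with KB02. Among nuclear genes for respiratory complexes, of 78 such genes, all measured, 12 were called higher and 15 lower with KB05 than with DMSO, and with KB02, relative to DMSO, 6 were higher and 38 lower, by edgeR's quasi-likelihood test. Their median log2 fold change was 0.02 with KB05 and -0.26 with KB02, against -0.00 and 0.00 for all genes tested. Between KB05 and KB02, 45 were called higher and 1 lower, with a median of 0.24; scaling by library size alone gave 25 higher and 2 lower, with a median of 0.13. NDUFB6, a complex I subunit, was 2.31-fold lower with KB02 than with DMSO (adjusted p = 2.09e-14), and SDHC, a membrane anchor of complex II, 1.97-fold lower (adjusted p = 3.16e-07). With KB05 NDUFA9, also of complex I, was 1.53-fold lower (adjusted p = 4.48e-08), and NDUFV3 1.54-fold higher (adjusted p = 2.20e-07). Scaling by library size alone gave 15 higher and 12 lower for KB05 against DMSO, and 9 higher and 29 lower with a median of -0.13 for KB02 against DMSO. Of the 13 mitochondrially encoded subunits, 12 were called lower with each compound, while the nuclear ones had a median near 0 with KB05.

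Regulators of mitochondrial biogenesis, 11 genes and all measured, had 3 members higher with KB05 than with DMSO and 8 higher with KB02 than with DMSO. None was called lower in either comparison by edgeR's quasi-likelihood test, at an unadjusted p under 0.05 or by DESeq2. The 8 higher with KB02 include ESRRG, which was near the floor, at 0.899 ± 0.230 CPM with KB02 and 0.325 ± 0.0911 CPM with DMSO. The call of ESRRG therefore carries no weight. NRF1, a transcription factor for nuclear genes of the respiratory chain, was at 21.0 ± 1.26 CPM with KB05, 33.7 ± 0.333 CPM with KB02 and 20.3 ± 0.669 CPM with DMSO (SD, n = 3), and PPRC1, a coactivator, was 1.84-fold higher with KB02 than with DMSO (adjusted p = 2.27e-11). With KB05 TFEB, a regulator of lysosomal genes, was 1.28-fold higher than with DMSO (adjusted p = 0.0110) and ESRRA, a nuclear receptor, 1.25-fold higher (adjusted p = 0.000309). Of 15 mitochondrial chaperones and proteases, 6 were higher and 3 lower with KB05 than with DMSO, and with KB02, relative to DMSO, 6 were higher and 3 lower. Scaling by library size alone gave 8 higher and 3 lower with KB05, and 9 higher and 2 lower with KB02. HSPE1, the chaperonin lid, was at 841 ± 110.0 CPM with KB05, 456 ± 53.3 CPM with KB02 and 524 ± 46.6 CPM with DMSO, and SPG7, a protease of the inner membrane, was 1.67-fold lower with KB05 than with DMSO (adjusted p = 4.07e-09). With KB02 GRPEL2, an exchange factor of the mitochondrial chaperone system, was 1.75-fold higher than with DMSO (adjusted p = 1.97e-10) and HSPD1, the chaperonin itself, 1.40-fold higher (adjusted p = 3.74e-06).

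Of the 12 prostate luminal markers, 5 were called higher and 4 lower with KB05 than with DMSO, and with KB02, relative to DMSO, 2 were higher and 8 lower. TMPRSS2, a luminal surface protease, was 1.75-fold lower with KB05 (adjusted p = 2.56e-09) and 2.53-fold lower with KB02 (adjusted p = 1.91e-14). KLK2, a secreted kallikrein, was 1.34-fold higher with KB05 than with DMSO (adjusted p = 1.34e-05), and EPCAM, an epithelial adhesion protein, 2.72-fold lower with KB02 than with DMSO (adjusted p = 6.28e-16). Of the 13 measured markers of other cell types, 1 was higher and 1 lower with KB05 than with DMSO, and with KB02, relative to DMSO, 3 were higher and 2 lower. SYP, a synaptic vesicle protein, was 1.20-fold lower with KB05 (adjusted p = 0.00370) and 1.99-fold lower with KB02 (adjusted p = 6.56e-13). COL1A1, a collagen chain, was 1.36-fold higher with KB05 than with DMSO (adjusted p = 0.00261), and CD14, a monocyte receptor, 16.4-fold higher with KB02 than with DMSO (adjusted p = 3.27e-08). CD14 was at 8.80 ± 2.62 CPM with KB02, 0.397 ± 0.269 CPM with KB05 and 0.541 ± 0.249 CPM with DMSO, so its fold rests on a DMSO level near the floor. It was above the floor range with KB02 alone, so its call, which is among the 3 higher, carries no weight.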
